A study of Mus musculus with 11 samples.

Results

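The wound front of wild-type (WT) mouse epidermis was compared with unwounded WT epidermis by RNA-seq, using every library labelled with genotype WT and treatment wounded (2 libraries) or unwounded (2 libraries). These 4 libraries are among 7 RNA-seq libraries and 11 samples in the series; the other RNA-seq libraries are from mice that lack *Grhl3* in keratin 14-expressing cells (*Grhl3*-cKO), and the remaining 4 samples are chromatin accessibility (ATAC-seq) profiles. The WT mice carried the *Krt14*-Cre transgene without the floxed *Grhl3* alleles, were littermates of the mutants and are labelled strain C57BL/6; they were adult, and the labels give no age or time. Wounded samples came from the margin of full-thickness punch wounds of the back some days after wounding, and unwounded samples from skin distant from the wound. In both, the epidermis was separated with trypsin and the keratinocytes were sorted for integrin alpha 6 (CD49F), leaving out cells positive for CD45, CD31 or TER119, the surface markers of leukocytes, endothelium and red cells. Animals of both sexes were used. The library titles attach the replicate number to the genotype rather than to the treatment, and the authors give n = 2 per genotype. Same-numbered wounded and unwounded libraries may therefore come from the same mouse, but no label states this or whether a library pooled animals. P values here measure the spread between libraries, and the main test does not pair them.

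During re-epithelialization, keratinocytes at the wound margin flatten, loosen their attachment to the basement membrane and move as a sheet over a provisional matrix. They do so by secreting proteases and new matrix, changing integrins and rebuilding actin bundles, while keratinocytes behind the edge divide. Epidermis at a margin is also known for keratins 6, 16 and 17, for a delay in cornification, and for cytokine signals exchanged with immune and dermal cells.

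The deposited values are reads counted per gene. The unwounded libraries held 15488699 and 16807451 counted reads, and the wounded libraries 16653948 and 15418631. Levels are given as CPM, read counts scaled to a common library size after TMM normalization, in the order replicate 1 and replicate 2, and where 2 pairs are set against each other the unwounded pair comes before the wounded pair. CPM is not scaled for transcript length, so differences in level are read between libraries. The most abundant member named for a list is ranked by this unscaled level, which also depends on transcript length. Keratinocyte identity was visible in all 4 libraries: *Krt14*, the basal keratin, was at 13161 and 16201 CPM in unwounded and 12102 and 19489 CPM in wounded keratinocytes, and the 8 basal keratinocyte genes summed to 40033 and 43442 CPM and 36565 and 49795 CPM, with overlapping groups.

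Of 24421 genes listed, 14045 had enough counts to be tested. At a Benjamini-Hochberg adjusted p under 0.05 in edgeR's quasi-likelihood test, 4 genes differed, which is 0.0285% of those tested, and all 4 rose in wounded keratinocytes: *Mmp9*, *Xist*, *Pmepa1* and *Cald1*. At an unadjusted P under 0.05, the threshold used below to describe gene groups, 446 genes were higher (3.18%) and 234 lower (1.67%). Together these are 680 genes, beside 702 that this threshold would give over 14045 genes with no difference. A fit with a block for replicate number, which pairs same-numbered libraries, gave 48 genes past the adjusted threshold, the 4 above among them. At P under 0.05 it gave 607 higher and 339 lower genes. Values below are from the test without this block unless stated. Both wounded libraries lay above both unwounded libraries for 2352 genes (16.7%) and below both for 2282 (16.2%). The median log2 fold change over all genes tested was 0.00338. Gene groups are set beside these shares as a description and not a test, since the lists were chosen with earlier results of these data known. Single genes outside the 4 did not pass the adjusted threshold in the test without the block and are given as values with their adjusted p. Counts for a gene group are followed, where members passed P under 0.05 in any of these fits, in parentheses by the counts found on leaving out unwounded replicate 1, unwounded replicate 2, wounded replicate 1 and wounded replicate 2, in that order (written as left-out counts). For mural and fibroblast genes, left-out counts are given for the higher members only. In both lists a lower member also passed P under 0.05 in some of these fits. Left-out medians, where given, follow the same order, some with the median on requiring at least 10 counts in every library.

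**Figure D1:**
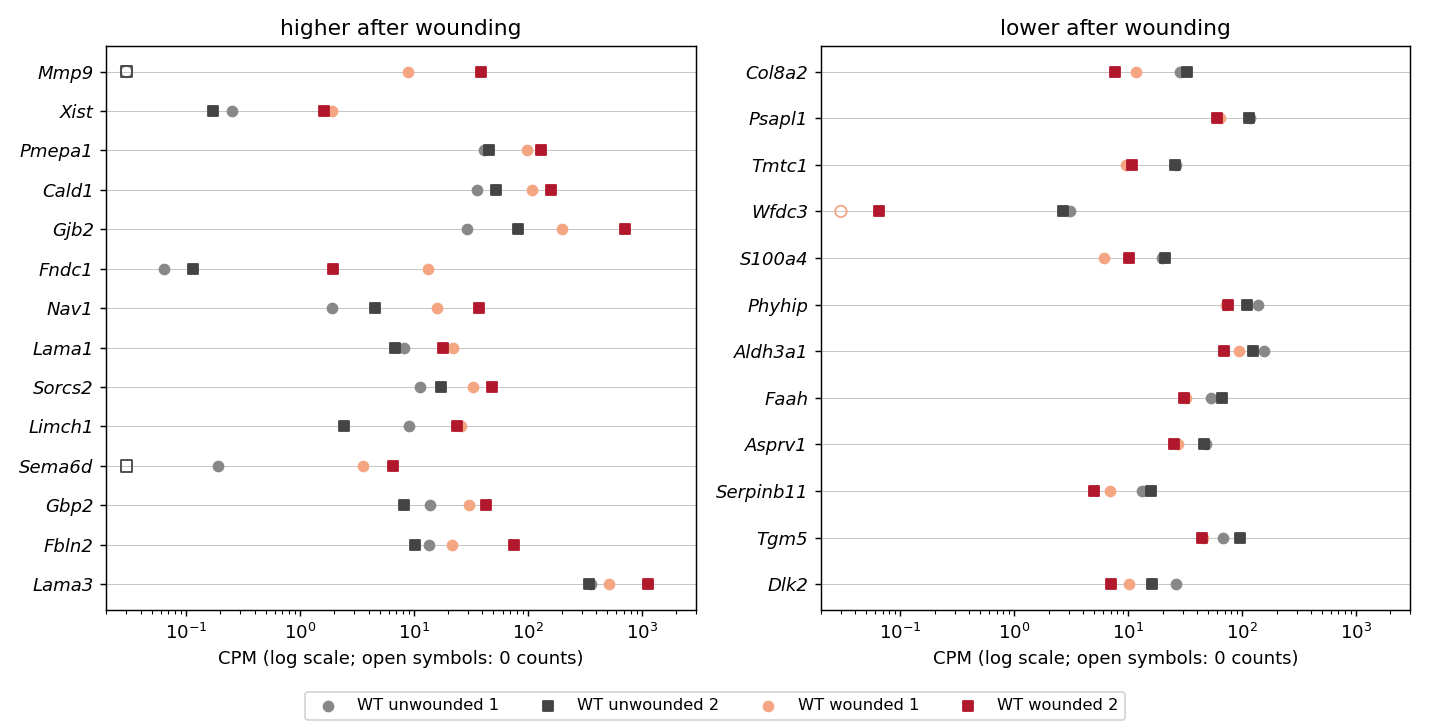
CPM on a log axis in each of the 4 WT libraries for 14 of the 16 higher genes and the 12 lower genes with the smallest P among those with P under 0.05, a mean log2 CPM of at least 1 over the 7 libraries and no overlap between WT groups, predicted genes left out (open symbols, 0 counts). *Mmp9* was at 0 in both unwounded libraries, and its wounded libraries were at 8.82 and 38.9 CPM.

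*Mmp9* encodes gelatinase B, a secreted metalloprotease that cleaves denatured collagen and basement membrane collagen IV; it lies on chromosome 2 (mm10 chr2:164940780-164955850). No read was counted on it in either unwounded library, against 148 and 599 reads in the wounded libraries (8.82 and 38.9 CPM). Set against a floor of 3 counts over the unwounded group, this is at least 255-fold higher (adjusted p = 0.00430). *Pmepa1* encodes a membrane protein that is induced by TGF-beta and restrains SMAD signaling (chr2:173224458-173276533). It was at 41.3 and 45.7 CPM in unwounded and 98.6 and 130.4 CPM in wounded keratinocytes, a log2 fold change of 1.40 (SE 0.20, adjusted p = 0.0126). *Cald1* encodes caldesmon, which binds actin, tropomyosin and myosin and regulates actomyosin contraction (chr6:34598500-34775473). Its levels were 35.6 and 52.4 CPM unwounded and 109.8 and 161 CPM wounded (log2 fold change 1.62, SE 0.25, adjusted p = 0.0258). For all 3 genes both wounded libraries lay above both unwounded libraries.

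*Xist*, the RNA that silences an X chromosome in female cells, passed the test at very low counts. It had 4 and 3 reads in unwounded and 32 and 25 reads in wounded keratinocytes (0.255 and 0.174 CPM unwounded, 1.91 and 1.63 CPM wounded, adjusted p = 0.0101). The *Grhl3*-cKO unwounded library, which shares the fit, had 14854 reads of *Xist*, so its mean level over the 7 libraries is mostly that of this library. With only the 4 WT libraries, *Xist* had an adjusted p of 0.998. The Y-linked *Ddx3y* was at 102 and 101 CPM unwounded and 109.9 and 88.9 CPM wounded, so Y-linked transcripts were present in all 4 WT libraries. Among the 4 Y-linked genes, *Kdm5d*, a histone demethylase, came nearest the threshold (21.4 and 22.1 CPM unwounded, 29.2 and 31.5 CPM wounded, adjusted p = 0.984). The single call in the sex-linked list of 5 genes is *Xist*, and the median of the list was 0.17 (left-out medians 0.00078, 0.35, 0.24 and 0.11).

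The 4 calls depend on the libraries in the fit. With only the 4 WT libraries no gene passed (smallest adjusted p = 0.303, a value that *Mmp9* and *Pmepa1* both have, with 384 genes higher and 215 lower at an unadjusted P under 0.05). The adjusted p of *Mmp9* was 0.0640 without unwounded replicate 2. That of *Pmepa1* was 0.195 and 0.0908 without unwounded replicate 1 or 2, and 0.0629 without wounded replicate 2. That of *Cald1* was 0.221, 0.0640 and 0.111 in the same 3 fits, and that of *Xist* 0.0765 and 0.135 without unwounded replicate 1 or 2.

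Among matrix proteases and their inhibitors, 29 of 33 listed genes were tested, 6 were higher (left-out counts 4, 2, 6 and 3) and 0 lower (left-out counts 0, 0, 1 and 0) at P under 0.05, and the median log2 fold change was 0.23 (left-out medians 0.25, 0.28, 0.32 and 0.087). Requiring at least 10 counts in every library left 18 tested, of which 2 were higher, and a median of 0.20. *Mmp9* was not among those tested with this filter. Besides *Mmp9*, *Adam12*, a membrane protease of the disintegrin family, was at 0 and 0.289 CPM unwounded and 2.86 and 6.50 CPM wounded (adjusted p = 0.578). *Timp3*, an inhibitor of metalloproteases bound to the matrix, was at 81.4 and 58.2 CPM unwounded and 218 and 67.0 CPM wounded (adjusted p = 0.811). Its groups overlapped, since only wounded replicate 1 was high, and without that library its log2 fold change was -0.061. *Adamts1*, a secreted protease that cleaves proteoglycans and the most abundant member, was at 439.9 and 474 CPM against 544 and 473 CPM with overlapping groups.

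The plasminogen system, which turns plasminogen into the fibrin-cleaving protease plasmin, had all 7 listed genes tested and a median log2 fold change of 0.46 (left-out medians 0.50, 0.56, 0.48 and 0.22). The urokinase receptor *Plaur* was at 6.70 and 3.99 CPM against 12.3 and 7.48 CPM (adjusted p = 0.984) and urokinase itself, *Plau*, at 49.8 and 68.8 CPM against 59.7 and 103 CPM (adjusted p = 0.984). *Plaur* did not overlap between groups, whereas *Plau* did. *Serpinb2*, an intracellular inhibitor of plasminogen activators and the most abundant member, overlapped as well (1269 and 644 CPM unwounded, 1120.2 and 833 CPM wounded).

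Matrix and basement membrane genes held the largest number of higher members among the lists, except without unwounded replicate 2 (10, against 11 in the actin list): 15 of 51 tested were higher (left-out counts 19, 10, 14 and 17) and 2 lower (left-out counts 2, 2, 3 and 2) at P under 0.05, with a median log2 fold change of 0.47 (left-out medians 0.52, 0.40, 0.089 and 0.35), and 23 had both wounded libraries above both unwounded ones. Requiring at least 10 counts in every library left 43 tested, of which 12 were higher and 2 lower, and a median of 0.34. *Lama3*, a laminin chain of the epidermal basement membrane, was at 356 and 346 CPM against 512 and 1125 CPM (adjusted p = 0.169). Wounded replicate 2 stood highest and the unwounded libraries lay close together.

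*Lama1*, the alpha chain of laminin 111 and in no list, was at 8.17 and 6.89 CPM unwounded and 22.2 and 17.9 CPM wounded (adjusted p = 0.161). The matrix glycoprotein fibulin 2, *Fbln2*, was at 13.7 and 10.2 CPM unwounded and 21.8 and 76.4 CPM wounded (log2 fold change 2.04, adjusted p = 0.169). *Thbs1*, thrombospondin 1, a matricellular protein that can activate latent TGF-beta, was the most abundant member, at 3809 and 3466 CPM unwounded and 5571 and 4499.8 CPM wounded (adjusted p = 0.579). All of these were above in both wounded libraries. *Col8a2*, a short-chain collagen of basement membranes, went the other way, at 28.3 and 32.9 CPM unwounded and 11.6 and 7.61 CPM wounded (log2 fold change -1.67, SE 0.32, adjusted p = 0.131). *Fndc1*, a fibronectin type III domain protein that is in no list, had 3 reads over both unwounded libraries and 255 over the wounded ones, a ratio of 87.1 with an exact counting interval of 29.5 to 425 (adjusted p = 0.102). Its level was uneven between the wounded libraries (13.4 and 1.95 CPM).

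Integrins are the receptors through which keratinocytes hold and pull on matrix. All 16 listed were tested, 5 were higher (left-out counts 4, 1, 5 and 2) and 0 lower at P under 0.05, and the median log2 fold change was 0.35 (left-out medians 0.46, 0.44, 0.28 and 0.20). *Itga5*, the fibronectin receptor subunit, was at 20.4 and 11.9 CPM unwounded and 28.2 and 45.7 CPM wounded (adjusted p = 0.578). *Itga2*, part of the collagen receptor, was at 20.2 and 21.5 CPM against 28.0 and 62.0 CPM (adjusted p = 0.579), and their shared partner *Itgb1* at 398 and 373 CPM against 471 and 661 CPM (adjusted p = 0.829). None of these 3 overlapped between groups, and wounded replicate 2 was the highest library in each. *Itga6*, the hemidesmosome subunit used for the sort, was at 1246 and 1271 CPM unwounded and 1268 and 1958 CPM wounded, high only in wounded replicate 2.

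In the actin cytoskeleton and contraction list all 50 genes were tested, 13 were higher (left-out counts 13, 11, 8 and 12) and 0 lower at P under 0.05, 42 had a fold change above 0, and the median was 0.22 (left-out medians 0.32, 0.12, 0.17 and 0.27). *Pdpn*, podoplanin, a membrane glycoprotein that binds ezrin and moesin, was at 2.68 and 4.80 CPM unwounded and 13.1 and 49.4 CPM wounded (log2 fold change 3.05, adjusted p = 0.203). *Acta2*, smooth muscle actin, was at 0.574 and 2.26 CPM unwounded and 16.4 and 10.01 CPM wounded (log2 fold change 3.21, adjusted p = 0.317). Both wounded libraries exceeded both unwounded libraries in each, with replicate 2 the higher for *Pdpn* and replicate 1 for *Acta2*. *Limch1*, an activator of nonmuscle myosin II that was not on the list, was at 8.997 and 2.43 CPM unwounded and 25.8 and 23.9 CPM wounded (adjusted p = 0.161). *Actg1*, cytoplasmic gamma actin and the most abundant member, overlapped between groups (4514 and 3900.3 CPM against 5171 and 4267 CPM).

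Of 34 cell junction genes tested, 3 were higher (left-out counts 4, 4, 4 and 5) and 2 lower (left-out counts 2, 1, 2 and 1) at P under 0.05 and the median log2 fold change was 0.063 (left-out medians 0.15, 0.0036, 0.026 and 0.053). The gap junction protein connexin 26, *Gjb2*, was at 29.1 and 82.6 CPM unwounded and 199.99 and 708 CPM wounded (log2 fold change 3.02, SE 0.53, adjusted p = 0.0862). Connexin 30, *Gjb6*, was at 3.96 and 5.15 CPM unwounded and 9.90 and 26.9 CPM wounded (adjusted p = 0.241). In both connexins replicate 2 was above replicate 1 in each group, yet the groups did not overlap. The desmosomal cadherin of upper layers, *Dsc1*, was lower (143 and 159 CPM unwounded, 90.7 and 105 CPM wounded, adjusted p = 0.517), and desmoplakin, *Dsp*, the most abundant junction gene, overlapped (12113 and 12687 CPM against 11379 and 13449.9 CPM).

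Of 23 genes of the suprabasal and cornified layers tested, 18 had a fold change below 0, 7 were lower (left-out counts 5, 7, 6 and 8) and 0 higher (left-out counts 1, 0, 1 and 1) at P under 0.05, the median log2 fold change was -0.31, and the summed level was 7414 and 7853 CPM in unwounded and 4544 and 6324 CPM in wounded keratinocytes. *Krt1*, the first keratin made on leaving the basal layer and the most abundant member, was at 2854 and 3553 CPM unwounded and 1486 and 2579 CPM wounded (adjusted p = 0.693). *Asprv1*, a protease that processes profilaggrin, was at 48.2 and 46.4 CPM against 27.5 and 25.0 CPM (adjusted p = 0.437), and *Tgm5*, a transglutaminase that cross-links the cornified envelope, at 67.9 and 96.3 CPM against 45.0 and 44.2 CPM (adjusted p = 0.449). No wounded library reached an unwounded one in any of the 3. In bulk libraries fewer suprabasal cells and less RNA per cell cannot be told apart.

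Basal keratinocyte genes held 1 lower member of 8 (left-out counts 0, 1, 1 and 0), 0 higher (left-out counts 0, 0, 3 and 1) and a median of 0.12 (left-out medians 0.11, 0.13, 0.23 and -0.083). That member was *Krt15*, a keratin of quiescent basal and bulge cells, at 2847 and 2676 CPM unwounded and 2173 and 2015 CPM wounded (log2 fold change -0.40, adjusted p = 0.761). *Itgb4*, the partner of *Itga6*, was at 753 and 749 CPM against 797 and 1063 CPM (adjusted p = 0.984). Both *Krt15* values in wounded keratinocytes lay below the unwounded ones, while *Krt14* overlapped. Barrier lipid synthesis held 41 tested genes, 1 higher (left-out counts 1, 0, 1 and 1) and 3 lower (left-out counts 5, 1, 2 and 7) at P under 0.05, with a median of -0.10 (left-out medians -0.068, -0.17, -0.23 and -0.17). The lower ones were the lamellar granule lipid transporter *Abca12* (290.2 and 294 CPM unwounded, 216 and 217 CPM wounded, adjusted p = 0.843), the acylceramide enzyme *Pnpla1* (12.1 and 13.7 CPM against 6.50 and 7.54 CPM, adjusted p = 0.895) and the lipoxygenase *Alox12b* (3.57 and 7.76 CPM against 1.73 and 1.95 CPM, adjusted p = 0.895). *Scd1*, a fatty acid desaturase and the most abundant, overlapped (643 and 874 CPM against 802 and 659 CPM).

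Stress keratins and small proline-rich proteins, which mark activated epidermis, had 14 of 16 genes tested, 4 higher (left-out counts 2, 6, 5 and 0) and 0 lower at P under 0.05, and a median of 0.34 (left-out medians 0.37, 1.15, 0.88 and -0.077; 0.64 with at least 10 counts). *Krt16* was at 1769 and 1954 CPM unwounded and 2434 and 3358 CPM wounded (log2 fold change 0.64, adjusted p = 0.559), with no overlap. *Krt6a* was at 512 and 1597 CPM unwounded and 1473 and 3410.2 CPM wounded (adjusted p = 0.858) and *Krt6b* at 39.0 and 259 CPM against 232 and 1078 CPM (adjusted p = 0.693). Both keratin 6 genes overlapped between groups, since unwounded replicate 2 was above wounded replicate 1. For both, each wounded library was above the unwounded library of the same number. The keratin 6 genes are near-identical copies, as are the *Sprr2* genes, so reads may be split between them and their single values are uncertain.

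Other genes among the 12 lower ones with the smallest P have varied roles. *Psapl1*, a relative of the lysosomal saposin precursor, was at 118 and 115 CPM unwounded and 63.2 and 60.6 CPM wounded (log2 fold change -0.91, SE 0.18, adjusted p = 0.161). *Tmtc1*, an enzyme that attaches mannose to cadherins, was at 26.2 and 25.9 CPM against 9.60 and 10.7 CPM (adjusted p = 0.169). *Wfdc3*, of the whey acidic protein family of protease inhibitors, had 94 reads over the unwounded and 1 over the wounded libraries, 91.7 times lower with an exact counting interval of 16.1 to 3662 (adjusted p = 0.203). For the first 2 the replicates lay close together within each group. *S100a4*, a calcium-binding protein, was at 19.8 and 21.1 CPM unwounded and 6.08 and 10.1 CPM wounded (adjusted p = 0.398). *Aldh3a1*, an aldehyde dehydrogenase, was at 154 and 124 CPM against 94.5 and 69.8 CPM (adjusted p = 0.437), and *Faah*, which breaks down the endocannabinoid anandamide, at 53.5 and 66.1 CPM against 31.9 and 30.7 CPM (adjusted p = 0.437). *Serpinb11*, of the clade of intracellular serpins, and *Phyhip* were also lower in both wounded libraries. Their values were 13.2 and 15.9 CPM against 6.91 and 5.01 CPM for *Serpinb11* (adjusted p = 0.449), and 138 and 111 CPM against 71.5 and 74.4 CPM for *Phyhip* (adjusted p = 0.430).

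**Figure D2:**
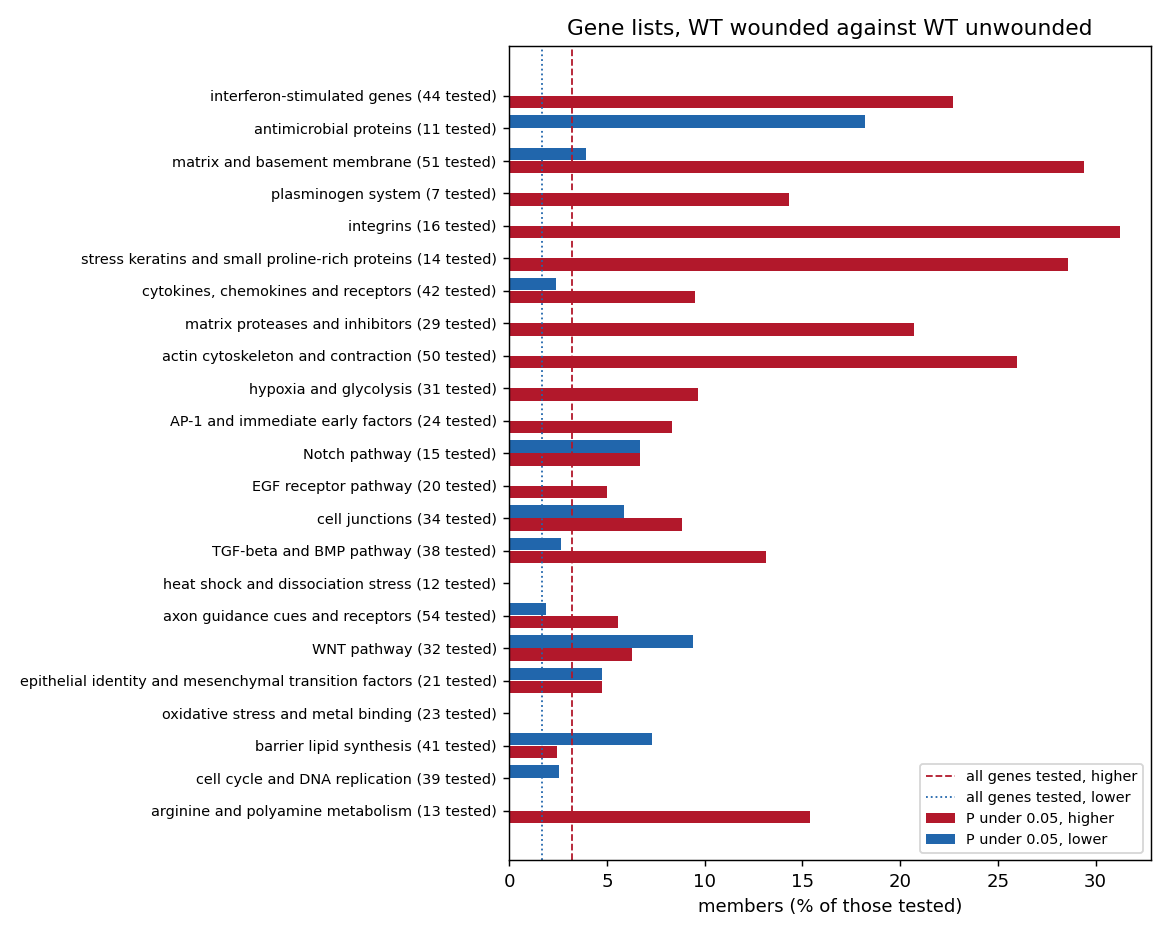
Percent of tested members with P under 0.05, higher (red) or lower (blue) in wounded keratinocytes, for each functional gene list, ordered by median log2 fold change with the highest at the top. Dashed and dotted lines mark all genes tested (3.18% and 1.67%). Integrins (5 of 16) and matrix and basement membrane genes (15 of 51) have the longest bars. The lists were chosen with earlier results of these data known, so the bars are a description and not a test.

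In the TGF-beta and BMP pathway all 38 genes were tested, 5 were higher (left-out counts 5, 5, 4 and 5) and 1 lower (left-out counts 1, 0, 4 and 1) at P under 0.05, and the median was 0.049 (left-out medians 0.043, -0.015, -0.041 and 0.035). *Pmepa1*, a known SMAD target, had the smallest P of the list. The matrix protein *Tgfbi*, named for its induction by TGF-beta and the most abundant member, was at 470.3 and 514 CPM unwounded and 614 and 855 CPM wounded (adjusted p = 0.667). The type I BMP receptor *Bmpr1b* was at 0.702 and 0 CPM unwounded and 3.87 and 4.94 CPM wounded (adjusted p = 0.545). Neither overlapped between groups, and *Bmpr1b* was close to 0 in the unwounded libraries.

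For the EGF receptor pathway 20 of 21 genes were tested, 1 was higher (left-out counts 1, 3, 1 and 1) and 0 lower (left-out counts 1, 1, 0 and 0) at P under 0.05, and the median was 0.094 (left-out medians 0.16, 0.037, 0.033 and 0.035). The higher gene was *Nrg1*, a ligand of ERBB3 and ERBB4, at 7.15 and 5.32 CPM unwounded and 15.2 and 20.4 CPM wounded (adjusted p = 0.522). The transcription factor *Etv4*, a target of this pathway, was at 46.5 and 35.9 CPM against 28.3 and 26.2 CPM (adjusted p = 0.984), and the ligand betacellulin, *Btc*, at 1.79 and 3.01 CPM against 0.596 and 0.455 CPM (adjusted p = 0.984). Both were below in the wounded libraries without passing P under 0.05. *Dusp6*, a phosphatase of ERK and the most abundant, overlapped (373 and 401 CPM against 410.3 and 345 CPM).

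Of 32 WNT pathway genes tested, 2 were higher (left-out counts 1, 1, 4 and 0) and 3 lower (left-out counts 2, 1, 5 and 4) at P under 0.05, with a median of 0.01 (left-out medians -0.13, 0.02, -0.16 and -0.049; -0.0095 with at least 10 counts). *Notum*, a secreted enzyme that inactivates WNT ligands, had 53 reads over the unwounded libraries and 1 over the wounded ones, 51.7 times lower with an interval of 8.89 to 2081 (adjusted p = 0.761). The receptor *Fzd2* was at 29.2 and 36.1 CPM against 21.3 and 20.6 CPM (adjusted p = 0.926), and the ligand *Wnt16* at 2.87 and 1.62 CPM against 3.40 and 7.48 CPM (adjusted p = 0.981). *Notum* and *Fzd2* were below and *Wnt16* above in both wounded libraries, while the co-receptor *Lrp5*, the most abundant, overlapped (225 and 244 CPM against 230.0 and 218 CPM).

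Of 15 Notch pathway genes tested, 1 was higher (left-out counts 0, 0, 1 and 0) and 1 lower (left-out counts 1, 1, 1 and 1) at P under 0.05, with a median of 0.12. The ligand *Jag1* was at 247 and 254 CPM unwounded and 312 and 346 CPM wounded (adjusted p = 0.908). *Dlk2*, a membrane protein related to Notch ligands, was at 26.2 and 16.1 CPM against 10.1 and 7.02 CPM (adjusted p = 0.449). The receptor *Notch1*, the most abundant, was at 659 and 567 CPM against 694 and 714 CPM (adjusted p = 0.998). Of the 3, *Dlk2* was the one below in both wounded libraries. *Notch4*, a receptor best known from endothelium, had 1 read over the unwounded and 33 over the wounded libraries, a ratio of 33.8 (exact counting interval 5.66 to 1376, adjusted p = 0.984).

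Axon guidance cues and receptors, which also steer epithelial and vessel cells, had 54 of 60 genes tested, 3 higher (left-out counts 4, 3, 4 and 4) and 1 lower (left-out counts 0, 3, 3 and 0) at P under 0.05, and a median of 0.036 (left-out medians 0.045, -0.017, 0 and 0.0035; 0.013 with at least 10 counts). *Nav1*, a neuron navigator protein that binds microtubule ends, was at 1.91 and 4.57 CPM unwounded and 15.9 and 37.4 CPM wounded (log2 fold change 3.03, SE 0.58, adjusted p = 0.131). Its relative *Nav2* was at 55.4 and 47.5 CPM against 84.6 and 74.8 CPM (adjusted p = 0.579). These 2 higher members are neither cues nor receptors, which leaves 1 higher member that is. The transmembrane semaphorin *Sema6d* had 3 reads over the unwounded and 161 over the wounded libraries, a ratio of 55.0 (exact counting interval 18.5 to 269, adjusted p = 0.166). All 3 were above in both wounded libraries. *Sorcs2*, a sorting receptor that binds proneurotrophins and is in no list, was at 11.4 and 17.4 CPM unwounded and 33.3 and 48.8 CPM wounded (adjusted p = 0.161). The ephrin receptor *Epha2*, the most abundant of the list, overlapped between groups (539 and 388 CPM against 579 and 488 CPM).

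Of 44 interferon-stimulated genes tested, 10 were higher (left-out counts 7, 8, 5 and 4) and 0 lower at P under 0.05, 26 had both wounded libraries above both unwounded ones, and the median log2 fold change was 0.69. *Gbp2*, a guanylate-binding GTPase of cell defense, was at 13.7 and 8.22 CPM unwounded and 30.5 and 42.8 CPM wounded (log2 fold change 1.74, SE 0.37, adjusted p = 0.169). *Rtp4*, an interferon-induced transporter protein, had 0 reads unwounded and 2.44 and 1.76 CPM wounded, at least 23.2-fold higher by the same floor of 3 counts (adjusted p = 0.579), and *Ifit1*, which binds viral RNA, was at 1.08 and 0 CPM against 2.32 and 10.01 CPM (adjusted p = 0.843). The most abundant member, the class I histocompatibility gene *H2-K1*, was level across libraries (834 and 817 CPM unwounded, 831 and 847 CPM wounded). With at least 10 counts required in every library, the higher members numbered 4 and the median was 0.17.

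Of 42 cytokines, chemokines and receptors tested, 4 were higher (left-out counts 7, 6, 4 and 5) and 1 lower (left-out counts 3, 0, 2 and 3) at P under 0.05, and the median was 0.23 (left-out medians 0.21, 0.26, 0.21 and 0.05; 0.10 with at least 10 counts). *Il24*, a cytokine of the interleukin 10 family, was at 3.76 and 2.37 CPM unwounded and 9.30 and 14.9 CPM wounded (adjusted p = 0.221). The interleukin 4 and 13 receptor subunit *Il4ra* was at 123 and 105 CPM against 171 and 237 CPM (adjusted p = 0.263), and the interferon-induced chemokine *Cxcl10* at 4.40 and 4.92 CPM against 13.7 and 11.4 CPM (adjusted p = 0.559). These 3 were above in both wounded libraries, and the chemokine *Cxcl14*, the most abundant, overlapped (348 and 386 CPM against 378 and 342 CPM). Antimicrobial proteins had 11 of 18 genes tested, 0 higher (left-out counts 1, 0, 1 and 0) and 2 lower (left-out counts 1, 1, 2 and 1), with a median of 0.60 (left-out medians 0.69, 0.60, 1.15 and -0.31; -0.082 with at least 10 counts). The siderophore-binding *Lcn2* was at 46.6 and 65.6 CPM unwounded and 26.6 and 34.2 CPM wounded (adjusted p = 0.517), and the beta-defensin *Defb6*, the most abundant, at 331 and 227 CPM against 194 and 155 CPM (adjusted p = 0.956). *Defb14*, another beta-defensin, had 0 reads unwounded and 8 and 5 reads wounded (adjusted p = 0.984). The summed level of the list was below in both wounded libraries (439 and 336 CPM unwounded, 269 and 263 CPM wounded).

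All 24 AP-1 and immediate early factors were tested, 2 were higher (left-out counts 2, 1, 1 and 5) and 0 lower (left-out counts 0, 0, 1 and 0), and the median was 0.17 (left-out medians 0.29, 0.07, 0.082 and 0.21). The nuclear receptor *Nr4a2* was at 12.4 and 23.7 CPM unwounded and 38.1 and 29.8 CPM wounded (adjusted p = 0.702), and the antiproliferative factor *Btg2* at 461 and 461 CPM against 674 and 536 CPM (adjusted p = 0.927). *Zfp36*, which destabilizes cytokine transcripts, was at 1143 and 990.4 CPM against 1284 and 1416 CPM (adjusted p = 0.984), and *Jun*, the most abundant, overlapped (2142 and 1785 CPM against 2587 and 2069 CPM). Epithelial identity and mesenchymal transition factors had 21 of 24 tested, 1 higher (left-out counts 3, 1, 1 and 2) and 1 lower (left-out counts 0, 0, 2 and 0), and a median of -0.016 (left-out medians 0.015, -0.10, -0.078 and -0.058). The higher member was the intermediate filament gene *Vim*, which is not a transcription factor. *Vim* was at 8.29 and 9.26 CPM unwounded and 15.3 and 29.3 CPM wounded (adjusted p = 0.416), and the homeobox gene *Hopx* at 53.9 and 56.4 CPM against 43.5 and 36.2 CPM (adjusted p = 0.984). *Sox4* was at 27.2 and 34.8 CPM against 44.6 and 38.6 CPM (adjusted p = 0.984), and *Sox9*, the most abundant, overlapped (647 and 612 CPM against 664 and 458 CPM).

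Of 39 cell cycle and DNA replication genes tested, 0 were higher (left-out counts 0, 1, 1 and 0) and 1 lower (left-out counts 4, 0, 1 and 1) at P under 0.05, 28 had a fold change below 0, and the median was -0.11 (left-out medians -0.27, 0.12, -0.077 and -0.18). The mitotic kinase *Cdk1* was at 34.01 and 53.1 CPM unwounded and 29.9 and 29.4 CPM wounded (adjusted p = 0.984), and *Mki67*, the proliferation antigen and most abundant member, at 1089.9 and 1540.3 CPM against 1140.3 and 1227 CPM with overlap. The cyclin-dependent kinase inhibitor *Cdkn1a* was at 140.2 and 116 CPM against 177 and 153 CPM (adjusted p = 0.984) and *Aurka*, a mitotic kinase, at 7.15 and 7.87 CPM against 14.2 and 9.88 CPM (adjusted p = 0.984). Both lay above in the wounded libraries, without passing P under 0.05.

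Hypoxia and glycolysis genes had 31 of 32 tested, 3 higher (left-out counts 3, 5, 10 and 1) and 0 lower (left-out counts 0, 0, 0 and 1), 29 with a fold change above 0, and a median of 0.20 (left-out medians 0.071, 0.45, 0.44 and -0.15). *Ndrg1*, a stress-responsive gene of differentiation, was at 223 and 199 CPM unwounded and 344 and 386 CPM wounded (adjusted p = 0.317). The lipid droplet coat gene *Plin2* was at 99.98 and 95.7 CPM against 134 and 156 CPM (adjusted p = 0.705), and the lactate exporter *Slc16a3* at 15.95 and 24.0 CPM against 24.6 and 70.8 CPM (adjusted p = 0.858). All 3 were above in both wounded libraries, and *Pkm*, the glycolytic pyruvate kinase and most abundant member, overlapped (767 and 1079 CPM against 761 and 1218 CPM). *Eno1*, a glycolytic enzyme of all cells, is listed at 0 in all 4 libraries, so a 0 in these tables does not by itself show that a gene was silent.

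Arginine and polyamine metabolism had 13 of 18 genes tested, 2 higher (left-out counts 3, 0, 1 and 1) and 0 lower (left-out counts 0, 0, 2 and 1), and a median of -0.24 (left-out medians -0.21, -0.11, -0.17 and 0.082). The polyamine acetylase *Sat1* was at 123 and 89.1 CPM unwounded and 165 and 137 CPM wounded (adjusted p = 0.856). *Paox*, a polyamine oxidase, was at 31.6 and 25.9 CPM against 22.9 and 16.4 CPM (adjusted p = 0.984), and *Odc1*, which makes putrescine and is the most abundant, at 386 and 346 CPM against 390.3 and 448 CPM. Oxidative stress and metal binding genes (23 of 24 tested, median -0.077, left-out medians 0.014, -0.0098, -0.076 and -0.12) and heat shock and dissociation stress genes (12 of 12, median 0.038, left-out medians 0.10, 0.026, -0.034 and 0.072) held 0 members at P under 0.05 in either direction; the former had 3 lower members without unwounded replicate 2 and 1 without wounded replicate 1. The superoxide dismutase *Sod1* (88.1 and 88.4 CPM unwounded, 78.6 and 63.2 CPM wounded, adjusted p = 0.984) had the smallest P among the former, and the chaperone co-factor *Dnajb1* (324 and 256 CPM against 314 and 381 CPM, adjusted p = 0.984) the smallest among the latter. The 13 mitochondrially encoded genes of the fixed list had no entries in the tables and could not be measured here.

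Hair follicle genes, which a sort of epidermis from haired skin can carry, had 22 of 23 tested, 4 higher (left-out counts 5, 2, 0 and 6) and 3 lower (left-out counts 2, 2, 8 and 1), and a median of 0.052 (left-out medians -0.031, -0.082, -0.51 and 0.054; -0.27 with at least 10 counts). The LIM homeobox factor *Lhx2* of the follicle stem cells was at 84.3 and 72.5 CPM unwounded and 54.1 and 31.7 CPM wounded (adjusted p = 0.529), and *Krt79*, a keratin of the follicle opening and the most abundant member, at 2014 and 1493 CPM against 1479 and 1043 CPM (adjusted p = 0.984). The higher ones included genes of the inner root sheath that were high in wounded replicate 1 alone. *Krt25* had 176 reads there and 0 in the other WT libraries (adjusted p = 0.579), and *Padi3*, an enzyme that citrullinates hair proteins, was at 0 and 0.579 CPM unwounded and 10.8 and 0.910 CPM wounded (adjusted p = 0.750). The part of hair follicle cells in these differences was not tested. Sebaceous gland genes (6 of 7 tested, 0 higher and 0 lower at P under 0.05, the latter with left-out counts 1, 0, 0 and 0, median -0.29, left-out medians -0.67, -0.13, -0.57 and 0.17) summed to 77.4 and 121 CPM unwounded and 84.3 and 71.2 CPM wounded, most of it from the fatty acyl reductase *Far2*.

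**Figure D3:**
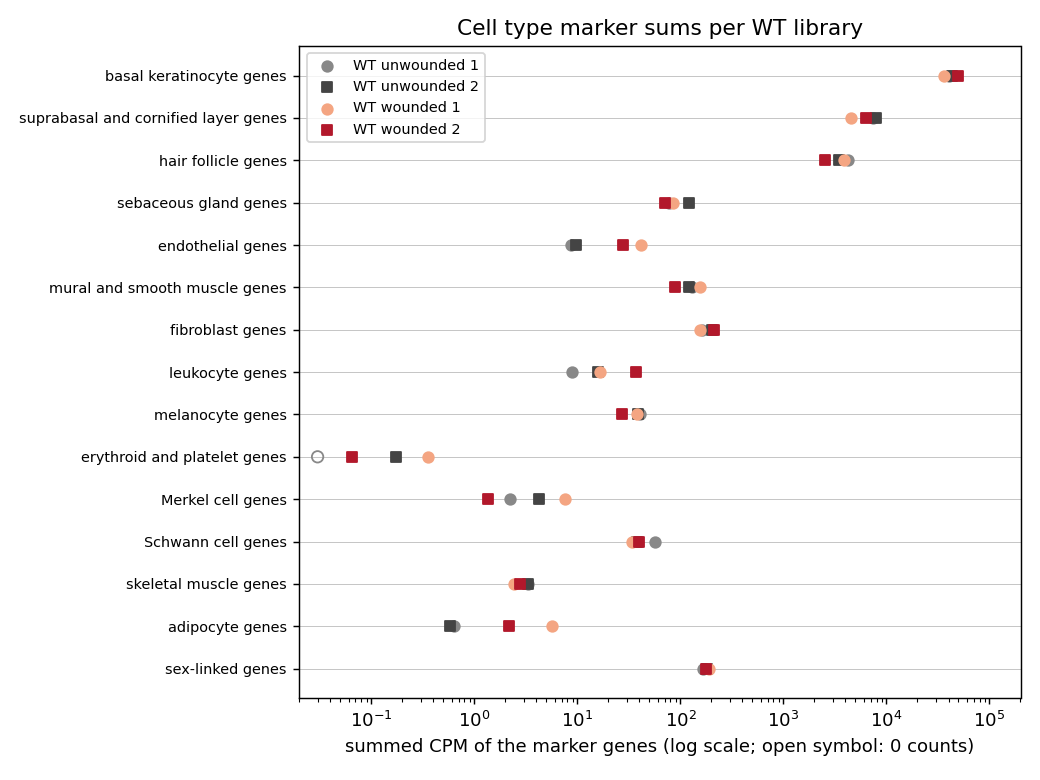
Summed CPM of each marker list on a log axis in each of the 4 WT libraries (open symbol, 0 counts). Endothelial sums were 8.68 and 9.67 CPM in unwounded and 41.4 and 27.6 CPM in wounded libraries, while basal keratinocyte sums overlapped between groups.

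The sort excluded CD31-positive cells, which would remove most endothelium. Of 13 endothelial genes tested of 14, 5 were higher (left-out counts 3, 5, 1 and 5) and 0 lower at P under 0.05, 10 had both wounded libraries above both unwounded ones, and the median log2 fold change was 2.49 (left-out medians 2.12, 3.01, 1.52 and 2.26; 0.66 over the 2 genes with at least 10 counts). Their sums were 8.68 and 9.67 CPM unwounded and 41.4 and 27.6 CPM wounded. *Flt1*, a VEGF receptor, was at 0.319 and 0.232 CPM unwounded and 5.42 and 6.83 CPM wounded (adjusted p = 0.203). *Cdh5*, VE-cadherin, was at 0.0638 and 0.752 CPM against 6.38 and 2.86 CPM (adjusted p = 0.761), and *Kdr*, another VEGF receptor, at 0.255 and 0 CPM against 4.53 and 0.325 CPM (adjusted p = 0.923). All of these levels are low, and *Kdr* and *Cdh5* were highest in wounded replicate 1. *Pecam1*, which encodes CD31, had 1 and 23 reads unwounded and 100 and 31 wounded. *Cldn5*, an endothelial junction gene, had 4 reads in wounded replicate 1 and 0 in the other WT libraries. The part of endothelial RNA in the matrix, guidance and Notch values above was not tested.

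Mural and smooth muscle genes had 6 of 11 tested, 2 higher (left-out counts 2, 2, 2 and 2), and a median of 2.90 (left-out medians 2.098, 2.96, 0.34 and 2.01; 1.22 with limma-trend and -0.29 with at least 10 counts in every library), with overlapping sums (130.4 and 121 CPM unwounded, 155 and 88.5 CPM wounded) set by the proteoglycan *Cspg4*, which epidermal cells also express (129 and 117 CPM against 124 and 76.1 CPM). The 2 higher genes were *Acta2* and *Tagln*, an actin-binding protein of smooth muscle at 0.574 and 0.752 CPM unwounded and 11.8 and 0.845 CPM wounded (adjusted p = 0.749), both also on the actin list. *Des*, desmin, had 2 and 0 reads unwounded and 0 and 23 wounded, and the pericyte gene *Rgs5* had 0 in all 4 libraries. Fibroblast genes overlapped in sum (160.1 and 201 CPM unwounded, 155 and 212 CPM wounded; 11 of 13 tested, 1 higher with left-out counts 3, 0, 2 and 0, median 0.039, left-out medians -0.11, 0.17, 0.48 and -0.33). The higher gene was the collagen gene *Col1a2* (4.91 and 3.59 CPM unwounded, 7.81 and 11.4 CPM wounded, adjusted p = 0.821), and *Fbln1*, the most abundant, overlapped (49.4 and 72.4 CPM against 61.0 and 60.1 CPM).

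Leukocyte genes summed to 8.87 and 15.7 CPM unwounded and 16.6 and 37.3 CPM wounded, with 7 of 15 tested, 2 higher (left-out counts 1, 2, 2 and 1) and a median of 1.15 (left-out medians 1.48, 4.26, 0.44 and 1.02). The most abundant member was *Cd74*, the class II invariant chain (3.96 and 13.6 CPM against 9.66 and 29.6 CPM, adjusted p = 0.984), which activated keratinocytes can also make. Lysozyme, *Lyz2*, had 0 reads unwounded and 16 and 37 wounded, at least 18.1-fold higher by the same floor (adjusted p = 0.693). *Ptprc*, which encodes CD45, had 9 reads in unwounded replicate 2 and 0 in the other WT libraries, and *Tyrobp*, *Fcer1g* and *Adgre1* had 0 in all 4. The part of leukocyte RNA in the cytokine and interferon-stimulated values was not tested.

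Melanocyte genes had 6 of 7 tested, 2 higher (left-out counts 1, 1, 0 and 2) and 1 lower (left-out counts 0, 0, 1 and 0), a median of 0.65 (left-out medians 1.76, 0.98, 0.21 and 0.98; -0.59 with at least 10 counts) and sums of 40.6 and 38.3 CPM unwounded and 37.7 and 26.8 CPM wounded. The pigment enzymes *Dct* (0.766 and 0.232 CPM unwounded, 4.71 and 2.41 CPM wounded, adjusted p = 0.769) and *Tyr* (2 reads over the unwounded and 65 over the wounded libraries, a ratio of 33.3 with a counting interval of 8.86 to 281, adjusted p = 0.861) were higher, while *Mitf*, the most abundant, was lower (33.1 and 34.7 CPM against 25.1 and 19.3 CPM, adjusted p = 0.926). Adipocyte genes had 2 of 5 tested and 1 higher (left-out counts 0, 0, 0 and 1), with a median of 1.82 (left-out medians 1.88, 1.77, -1.22 and 2.54). That gene was the fatty acid carrier *Fabp4* (0.383 and 0.289 CPM unwounded, 4.95 and 2.15 CPM wounded, adjusted p = 0.984), and the defining *Adipoq* and *Plin1* were at 0. The part of melanocyte, mural and adipocyte RNA in the values of other lists was not tested. No member passed P under 0.05 among 3 Merkel cell, 3 Schwann cell, 4 skeletal muscle and 1 erythroid and platelet genes tested; 1 Merkel cell gene was higher without wounded replicate 2, with DESeq2, with the likelihood ratio test and with no filter, 1 Schwann cell gene was lower without unwounded replicate 2 or wounded replicate 2, and 1 skeletal muscle gene was lower with the likelihood ratio test and with limma-trend. Their summed levels were 2.23 and 4.23, 56.2 and 37.7, 3.32 and 3.30, and 0 and 0.174 CPM unwounded against 7.57 and 1.37, 33.7 and 39.9, 2.44 and 2.80, and 0.358 and 0.0650 CPM wounded.

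Chromatin accessibility was deposited as 1 peak list per WT condition, so it is given as a description with no test. The deposited lists hold 10769 peaks for WT unwounded and 36872 for WT wounded keratinocytes. Of the genes tested, 13533 had a start in the GENCODE vM21 annotation. A peak of the wounded list lay over the 250 bases before that start for 57.8% of all genes (Wilson 95% interval 57.0% to 58.7%), 49.5% of the higher genes (44.8% to 54.2%) and 48.7% of the lower genes (42.2% to 55.2%). For the unwounded list these shares were 31.0% (30.2% to 31.8%), 20.4% (16.8% to 24.4%) and 22.8% (17.8% to 28.7%). No test of the differences between these shares was made. The shares carry counting error only, and the lists differ in size.

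Of the 4 genes that rose, *Cald1* and *Pmepa1* had a wounded peak over these 250 bases and no unwounded one. Over all genes, 57.8% had a wounded peak there and 31.0% an unwounded one. The share of all genes with a wounded peak alone was not counted, so this pattern is not shown to be particular to the called genes. The *Pmepa1* peak (chr2:173276350-173276725) had a deposited fold enrichment of 4.53 and the *Cald1* peak (chr6:34598243-34598711) of 3.60. *Mmp9* and *Xist* had no peak over the window in either list; the nearest wounded peak was 28767 and 1595 bases away. *Cald1* has a further RefSeq start inside the gene, and a wounded peak (chr6:34709259-34709556, fold enrichment 3.42) with no unwounded one covers part of that promoter too. Both *Cald1* promoters are printed, since the promoter sequences searched held no entry for *Pmepa1*, with 250 bases before the RefSeq start on the plus strand of GRCm38.p6 (chr6:34598254-34598503 and chr6:34709194-34709443), of which 4 and 2 bases lie in annotated exons of the gene. Capitals mark TGANTCA, the letters bound by AP-1; AACNNGTT, the letters bound by GRHL factors, was searched as well. Both motifs read the same on either strand.
*Cald1* outer promoter: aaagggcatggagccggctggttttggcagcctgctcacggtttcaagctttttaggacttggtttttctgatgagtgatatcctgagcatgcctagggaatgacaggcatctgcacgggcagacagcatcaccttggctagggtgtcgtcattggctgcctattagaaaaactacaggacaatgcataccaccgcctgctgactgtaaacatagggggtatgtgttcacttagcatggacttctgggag
*Cald1* inner promoter: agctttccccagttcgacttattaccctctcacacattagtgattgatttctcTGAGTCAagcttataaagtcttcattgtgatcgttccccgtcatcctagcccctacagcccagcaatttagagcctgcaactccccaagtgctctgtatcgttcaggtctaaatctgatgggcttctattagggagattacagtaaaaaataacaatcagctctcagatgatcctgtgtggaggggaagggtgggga

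The inner promoter holds TGANTCA once, 197 bases before the start and upstream of the wounded peak rather than within it, and the outer holds neither motif. Over the 250 bases before 32851 RefSeq starts, 6.75% hold TGANTCA and 3.64% hold AACNNGTT. A match is a description of these letters and was not tested for binding.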

How the data were processed

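Gene counts were deposited by the authors as whole reads per gene for each RNA-seq library, not normalized; their methods name kallisto and mm10, but the step that made these tables is not given in the sources used here. Rows that name no gene were left out; reads not uniquely aligned were 4.02%, 4.56%, 4.18% and 4.67% of each table (unwounded replicates, then wounded ones), and ambiguous reads 1.41%, 1.43%, 1.38% and 1.41%. For ATAC-seq the authors deposited broad peaks called with MACS2, each with a fold enrichment (ratio over background) and a −log10 q-value. Genes were filtered with filterByExpr, scaled by TMM and tested two-sided with edgeR 4.0.16 (R 4.3.3) over 7 libraries in 4 groups, which share the estimate of spread (biological coefficient of variation 31.6%), with Benjamini-Hochberg adjustment over all genes tested. An exact permutation test of 2 against 2 libraries cannot go below p = 0.333.

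Genes were named by rule: those with adjusted p under 0.05; the 16 higher and 12 lower with the smallest P, a mean log2 CPM of at least 1 and no overlap between WT groups; and in each list the 3 members with the smallest P and the most abundant. Some genes that the rule takes are not reported here. Other genes given by their reads (*Pecam1*, *Cldn5*, *Rgs5*, *Ptprc*, *Tyrobp*, *Fcer1g*, *Adgre1*, *Adipoq*, *Plin1*, *Eno1*) were chosen after their values were seen. Members and gene lists were chosen with earlier results of these data known. Besides the mitochondrially encoded genes, *Ca9*, *Ca12*, *Nectin1*, *Nectin2*, *Nectin4* and *Flg* of the fixed lists had no entry under these symbols in the deposited counts. They are not among the genes given as listed, and other symbols for them were not searched. Intervals and floors cover counting error only. Promoter starts came from GENCODE vM21 (96.4% of genes tested matched). Sequences came from a set of promoters before 32851 RefSeq starts of GRCm38.p6, in which the 4 called genes were looked up. This promoter set held no entry for *Mmp9* or *Pmepa1*. Alternatives were RLE scaling, DESeq2 1.42.0, the likelihood ratio test, limma-trend 3.58.1, other filters, the 4 WT libraries alone, a replicate block and leaving out each WT library.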

Additional observations from a re-analysis of the deposited data

How the results depend on the processing

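The count of genes with an adjusted p under 0.05, 4 in the edgeR quasi-likelihood test, was 24 with DESeq2, 49 with the likelihood ratio test, 1 with limma-trend, 96 with no filter, 0 with at least 10 counts in every library (smallest adjusted p = 0.0694, *Pmepa1*) and 0 with only the 4 WT libraries; it ranged from 0 to 29 when each WT library was left out in turn, a lone library then being assumed to vary like the other groups. It was 4 with RLE scaling and without predicted genes. Genes with an unadjusted P under 0.05 numbered 746 higher and 371 lower with the likelihood ratio test, 500 and 235 with DESeq2, 472 and 267 with limma-trend and 335 and 199 with at least 10 counts. Leaving out each WT library gave 392 to 478 higher and 179 to 378 lower genes. The titles attach the replicate number to the genotype, so same-numbered WT libraries may share a mouse, but no label states it. The numbers were therefore not taken as pairs in the main test. Deviations of same-numbered WT libraries from the group means had r = 0.154 across genes, which are not independent replicates. A fit with the replicate block gave 48 genes past the adjusted threshold, and 607 higher and 339 lower at P under 0.05. Its smallest adjusted p was 2.08e-08, for *Gjb2* and *Mmp9*. In the edgeR quasi-likelihood test without the block, *Gjb2* did not pass (adjusted p = 0.0862). With no filter and no block, *Gjb2* did pass and had the smallest adjusted p.

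Over 1855 combinations of a named gene and an alternative, 1656 kept their direction and side of P under 0.05, 103 lost it, 54 gained it and 41, not past it, changed sign. The log2 fold change of *Timp3*, 1.03, ranged from -0.061 without WT wounded replicate 1, where it reversed, to 1.64 without WT wounded replicate 2. List medians had another sign in 0 lists with RLE scaling, 3 with no filter, 6 with at least 10 counts, and 7, 4, 10 and 8 lists without unwounded replicate 1, unwounded replicate 2, wounded replicate 1 and wounded replicate 2. The cause of these differences was not tested.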
